A study of Homo sapiens with 6 samples.

Results

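The enzymes that place and remove methyl groups on histone lysines were followed in an RNA immunoprecipitation of IGF2BP3. The set held 48 genes, 31 of methyltransferase families and 17 of demethylases, taken by gene symbol from the 60655 rows of the count table. All 48 passed the expression filter, as did 14507 rows in all. The 6 catalytic methyltransferases of H3K4, *KMT2A*, *KMT2B*, *KMT2C*, *KMT2D*, *SETD1A* and *SETD1B*, had log2 fold changes of 0.31 to 0.89 in the IGF2BP3 IP over the IgG IP. None of the 48 mRNAs passed both thresholds for enrichment in the fit with condition as the only term. With the replicate number as a block, 4 of these 6 and the H3K27 demethylase *KDM6B* passed. With this block 3.56% of all tested genes were called, against 1.16% without it. With a GC correction added to the block, *SETD1A* and *SETD1B* passed, where 1.88% of all tested genes were called. The labels do not say whether same-numbered libraries share a lysate, so the block rests on correlations between these libraries. *EZH1*, *EZH2* and the methyltransferases of H4K20 had log2 fold changes close to 0.

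Histone lysine methylation is written mostly by proteins with a SET domain and erased by flavin-dependent amine oxidases of the KDM1 type or by oxygenases with a JmjC domain. Its effect depends on the residue. H3K4 methylation marks promoters and enhancers of active genes, H3K36 and H3K79 methylation lie over transcribed gene bodies, and H3K9, H3K27 and H4K20 methylation are linked to silent or compacted chromatin. In Merkel cell carcinoma (MCC), a neuroendocrine skin cancer, the H3K4 demethylase KDM1A (LSD1) has been studied as a drug target. IGF2BP3 is an oncofetal protein that binds mRNAs and affects their stability and translation.

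The data were 6 RIP-seq libraries from WaGa, an established human MCC cell line that carries Merkel cell polyomavirus, labelled as wild type and without treatment. An antibody to IGF2BP3 or control IgG was used for immunoprecipitation from these cells. The RNA that came down was sequenced, and each antibody had 3 libraries numbered 1 to 3. The comparison asks which RNAs were more abundant with the IGF2BP3 antibody than with IgG. All libraries came from 1 cell line, and the replicates were described only as independent, so the tests measured the spread between these libraries. Counts on genes ranged from 9758759 to 14886414 per library. They are given here as counts scaled to library size after TMM normalization (normalized CPM, here CPM), which sets the bulk of genes equal between libraries, and levels between genes as TPM, which divides by transcript length.

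The replicate 1 libraries stood apart from the others in both groups. In a chi-square comparison of counts within a group, the statistic over its degrees of freedom was 16.3 to 19.7 for pairs with replicate 1, and for replicates 2 and 3 it was 2.13 with IgG and 3.06 with the IGF2BP3 antibody. All 10 MCC marker genes were at 1 CPM or more in every library, with a summed level of 4130 to 4526 CPM in the IgG IP and 4096 to 4453 CPM in the IGF2BP3 IP. Of 6 blood cell markers 0 reached 1 CPM in every library, and the sum was 0.217 to 0.403 CPM and 0.336 to 0.755 CPM. *PTPRC* and *CD3E* were at 0. Of 6 fibroblast markers 1 (*DCN*) did so, with sums of 49.4 to 52.0 CPM and 41.7 to 47.0 CPM and *COL3A1* at 0. Of 6 keratinocyte markers 1 (*KRT10*) did so, with sums of 11.6 to 17.2 CPM and 12.3 to 15.3 CPM and *KRT14*, *KRT1* and *DSG3* at 0. The mRNA of *IGF2BP3* itself differed by a log2 fold change of -0.04 (SE 0.08).

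The 48 mRNAs differed widely in level. Together they took 0.251%, 0.294% and 0.288% of all counts with IgG (replicates 1 to 3, as in all lists of values), and 0.288%, 0.324% and 0.321% with the IGF2BP3 antibody. Per transcript length, *KDM1A* was the most abundant in the IgG IP with 129.5 ± 36.4 TPM (SD, n = 3). It was followed by *SETD3*, an actin histidine methyltransferase, with 95.5 ± 14.3 TPM, *SUV39H2*, which methylates H3K9, with 56.1 ± 7.64 TPM, and *NSD2*, which methylates H3K36, with 54.7 ± 8.71 TPM. *KDM1A* and *SETD3* overlapped in TPM, as did *SUV39H2* and *NSD2*. The low end held *KDM6B* with 1.80 ± 1.21 TPM, the JmjC protein *KDM8* with 1.64 ± 0.860 TPM, *KMT2B* with 1.59 ± 0.524 TPM, *SETD1B* with 1.23 ± 0.517 TPM and *SMYD5* with 0.903 ± 0.330 TPM. These lowest levels also overlapped between neighbours. *SETD1A*, with 1.97 ± 1.65 TPM, was close to these.

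The distribution of fold changes over the set leaned upward. The log2 fold change was above 0 for 37 of 48 members, where 48.9% of all tested genes were above 0. The median was 0.14 for the members and -0.01 for all tested genes. At a fold change of at least 1.5 and an adjusted p under 0.05, 0 of 48 members were enriched (quasi-likelihood test of edgeR, p adjusted after Benjamini-Hochberg), and 1.16% of all tested genes were. DESeq2, run without this expression filter, called 0 members as well (background 0.963% of 29184 genes). A log2 fold change of at least 0.58, the size of the fold threshold, was reached by 5 members (background 5.30%). In addition, 12 members had an unadjusted p under 0.05 in the edgeR fit, all higher (background 9.72%), while 0 were lower at that level (background 3.10%). With the replicate block, edgeR called 5 members, *SETD1A*, *SETD1B*, *KMT2D*, *KDM6B* and *KMT2B*, beside 3.56% of all tested genes. Without both replicate 1 libraries it called 5 as well (background 3.18%).

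The IGF2BP3 IP libraries all exceeded the IgG IP libraries for 11 members, *SETD1A*, *KMT2B*, *KMT2E*, *KDM4B*, *KMT2A*, *NSD3*, *KDM2B*, *KMT2C*, *KDM1B*, *PRDM2* and *NSD2*. This is 22.9% of the set, beside 12.0% of all tested genes. For 0 members were they all below (background 8.69%). With fewer libraries groups overlap less easily, and the share over all tested genes rose as well. Without IGF2BP3 IP replicate 1, 22 members did not overlap (background 20.7%), and without both replicate 1 libraries 28 (background 27.0%). Within same-numbered pairs of libraries, 26 members were higher in all 3 pairs (background 25.1%) and 3, *KDM1A*, *KMT5B* and *SMYD3*, were lower in all 3 (background 23.5%).

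**Figure D1:**
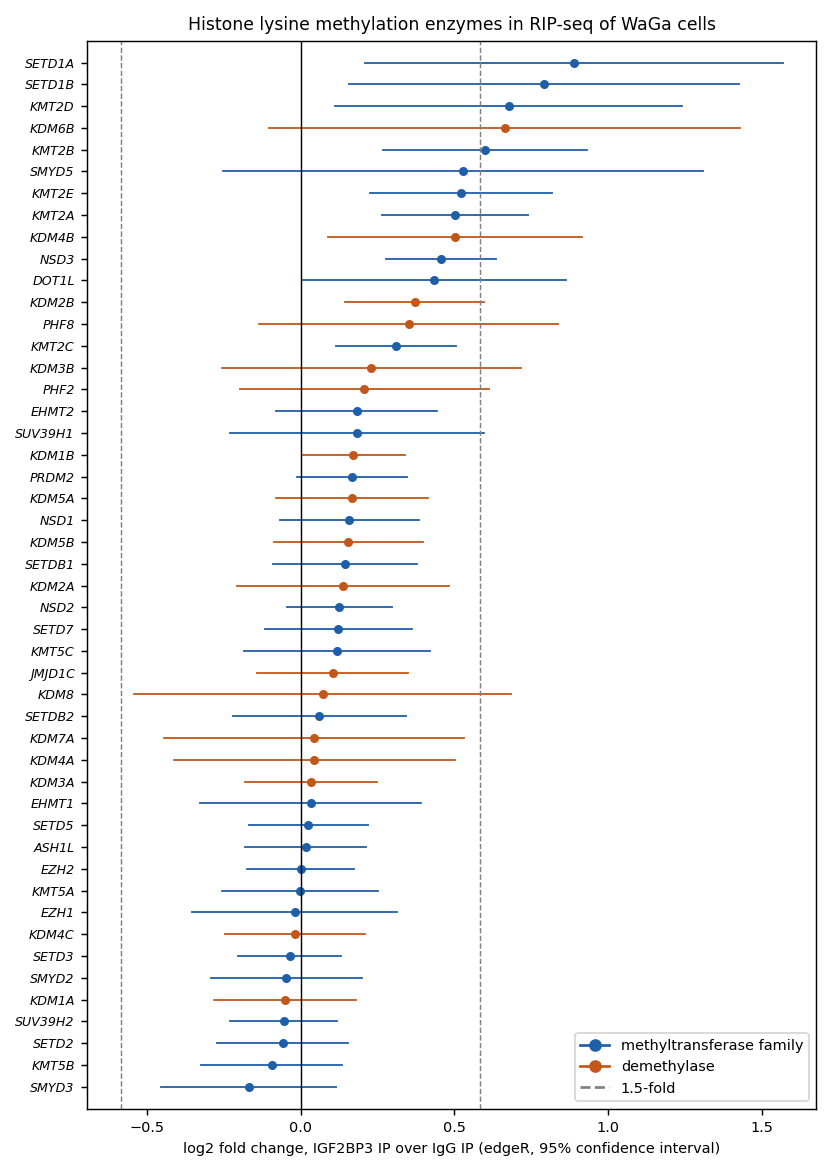
Log2 fold change of the IGF2BP3 IP over the IgG IP for the 48 members from edgeR, with 95% confidence intervals (x axis), ordered by size (y axis), with methyltransferase families in blue, demethylases in orange and dashed lines at 1.5-fold either way. *SETD1A* was highest at 0.89 and *SMYD3* lowest at -0.17, and 5 members lay past 1.5-fold upward.

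The H3K4 methyltransferases formed the class with the largest median among classes of more than 1 member, at 0.64 (6 members). KMT2A and KMT2B (MLL1 and MLL2) work with menin, KMT2C and KMT2D write H3K4 monomethylation at enhancers, and SETD1A and SETD1B place much of the trimethylation at promoters. They fall into 3 pairs of paralogs, and the end of their coding sequences shows how alike and how different these mRNAs are. The last 90 coding bases, which encode the end of the catalytic SET region and the stop codon, are printed because the paralogs still align there without gaps, while their choice of codon differs. They lie within 1 exon each, at chr11:118522083-118522172 (+) for *KMT2A*, chr19:35738468-35738557 (+) for *KMT2B*, chr7:152136832-152136921 (-) for *KMT2C*, chr12:49021780-49021869 (-) for *KMT2D*, chr16:30983934-30984023 (+) for *SETD1A* and chr12:121830150-121830239 (+) for *SETD1B*, in GRCh38 and the canonical transcripts of GENCODE version 44. Capitals mark a G or C at the last base of a codon, read 5′ to 3′.
*KMT2A*: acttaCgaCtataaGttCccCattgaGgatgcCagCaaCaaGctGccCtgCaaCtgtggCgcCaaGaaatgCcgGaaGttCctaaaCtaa
*KMT2B*: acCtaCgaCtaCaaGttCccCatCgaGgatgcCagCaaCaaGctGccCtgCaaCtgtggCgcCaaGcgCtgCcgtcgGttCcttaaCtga
*KMT2C*: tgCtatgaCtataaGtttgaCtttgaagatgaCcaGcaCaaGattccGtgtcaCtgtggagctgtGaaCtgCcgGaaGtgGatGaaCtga
*KMT2D*: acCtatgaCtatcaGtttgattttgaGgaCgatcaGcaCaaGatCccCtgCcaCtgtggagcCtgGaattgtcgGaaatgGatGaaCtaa
*SETD1A*: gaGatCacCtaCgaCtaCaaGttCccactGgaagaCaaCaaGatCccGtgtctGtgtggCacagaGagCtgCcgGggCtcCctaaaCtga
*SETD1B*: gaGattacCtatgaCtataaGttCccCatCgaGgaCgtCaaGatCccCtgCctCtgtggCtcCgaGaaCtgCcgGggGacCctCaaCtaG
Within this stretch *KMT2A* and *KMT2B* shared 79 of 90 bases, *KMT2C* and *KMT2D* 73, and *SETD1A* and *SETD1B* 70. *KMT2A* and *SETD1A* shared 47 when compared position by position without gaps. The first codons of that pair are out of register, so 47 understates how alike they are. A G or C closed 22 of 30 codons in *KMT2A*, 25 in *KMT2B*, 18 in both *KMT2C* and *KMT2D*, 23 in *SETD1A* and 26 in *SETD1B*. Over the whole coding sequence, G or C closed 43.9% of codons in *KMT2A* and 66.3% in *KMT2B*, 37.3% in *KMT2C* and 61.0% in *KMT2D*, and 71.0% in *SETD1A* and 76.9% in *SETD1B*.

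*SETD1A* was at 4.66, 12.5 and 7.91 CPM in the IgG IP and at 12.6, 18.0 and 17.0 CPM in the IGF2BP3 IP. The groups did not overlap, although the lowest IGF2BP3 IP library was close to the highest IgG IP library. Its log2 fold change was 0.89 (SE 0.30, edgeR adjusted p = 0.245), and 0.93 with the replicate block (adjusted p = 5.6e-05). *SETD1B* was at 6.94, 10.8 and 13.5 CPM and at 11.8, 21.2 and 21.5 CPM. Its groups overlapped, with IGF2BP3 IP replicate 1 below IgG IP replicate 3. It had a log2 fold change of 0.79 (SE 0.28, edgeR adjusted p = 0.275), and 0.81 with the block (adjusted p = 2.73e-05).

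*KMT2D* was at 13.7, 18.9 and 19.8 CPM in the IgG IP and at 17.5, 32.9 and 33.7 CPM in the IGF2BP3 IP. IGF2BP3 IP replicate 1 again lay below IgG IP replicates 2 and 3. The log2 fold change was 0.68 (SE 0.25, edgeR adjusted p = 0.290), 0.68 with the block (adjusted p = 4.35e-05), and 0.92 without IGF2BP3 IP replicate 1 (adjusted p = 0.0289). Without replicate 2 or 3 of the IGF2BP3 IP it was 0.54 and 0.51 (edgeR adjusted p = 0.613 and 0.661), under 1.5-fold. Its paralog *KMT2C* was more even, at 82.2, 81.8 and 76.6 CPM and at 94.5, 107.9 and 95.9 CPM. These groups did not overlap, and the log2 fold change was 0.31 (SE 0.09, edgeR adjusted p = 0.149).

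*KMT2B* was at 9.11, 10.5 and 9.60 CPM in the IgG IP and at 14.1, 13.4 and 16.9 CPM in the IGF2BP3 IP, with no overlap. This gave a log2 fold change of 0.60 (SE 0.15, edgeR adjusted p = 0.0995), and 0.59 with the block (adjusted p = 0.00207). *KMT2A* was at 52.6, 49.6 and 49.2 CPM and at 75.6, 76.5 and 62.0 CPM, again with no overlap. It had a log2 fold change of 0.50 (SE 0.10, edgeR adjusted p = 0.0608), and DESeq2 gave 0.49 with an adjusted p of 0.00802. The DESeq2 adjusted p of the other H3K4 methyltransferases ran from 0.067 (*KMT2B*) to 0.157 (*KMT2D*). With no fold minimum, 3 members were higher at a DESeq2 adjusted p under 0.05, *KMT2A*, *KMT2E* and *NSD3* (background 1.38% of 29184 genes). All 6 H3K4 methyltransferase mRNAs were higher in each of the 3 same-numbered pairs, as were 26 of the 48 members in all (background 25.1%). All 6 also had an edgeR adjusted p under 0.05 with the block, where 10.9% of all tested genes were higher at that level. The class was described with these fold changes known, so its counts carry no test.

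**Figure D2:**
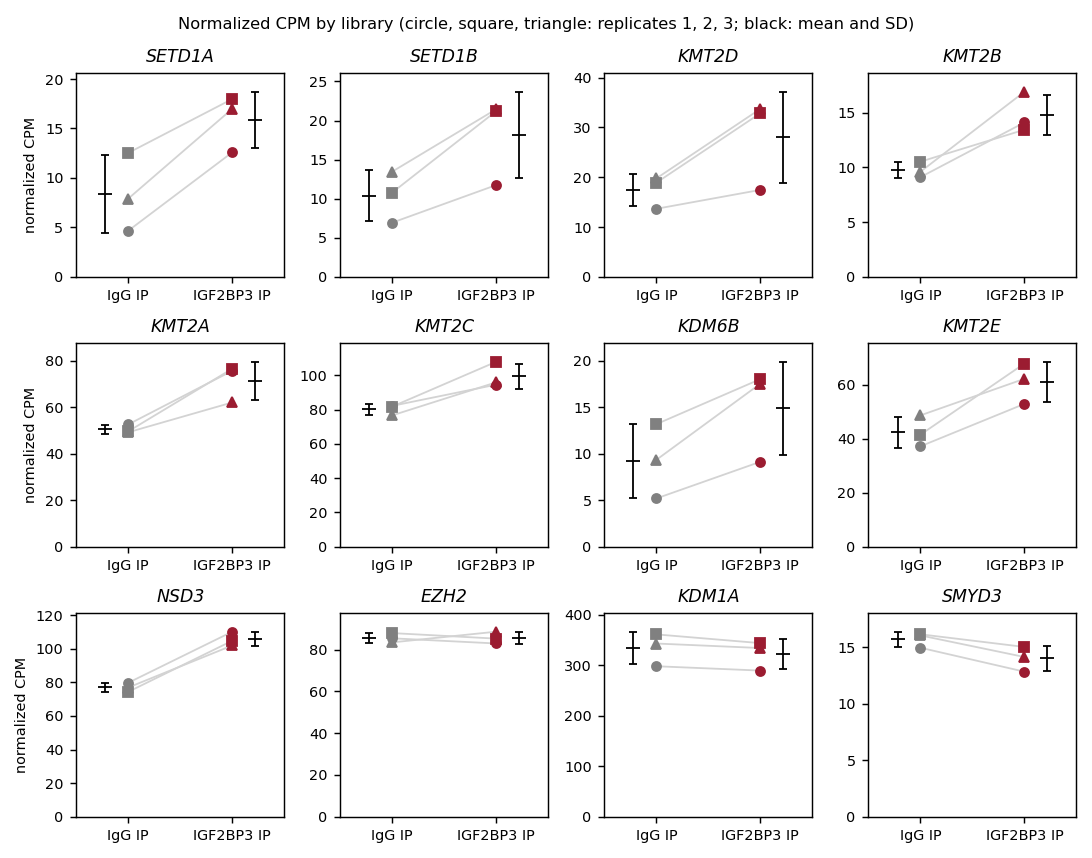
Normalized CPM (y axes, from 0) of 12 members in the 3 IgG IP and 3 IGF2BP3 IP libraries (x axes), with same-numbered libraries joined by grey lines and the mean ± SD in black. The circles of replicate 1 lie lowest in both groups for *SETD1A*, *SETD1B*, *KMT2D* and *KDM6B*, while *EZH2* stays at 83.0 to 88.6 CPM in all 6 libraries.

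Among the methyltransferases of H3K36, NSD1, NSD2 and NSD3 add up to the dimethyl state, SETD2 makes the trimethyl state on transcribed genes, and ASH1L opposes Polycomb. *NSD3* was at 79.8, 74.4 and 76.9 CPM in the IgG IP and at 110.2, 104.8 and 102.0 CPM in the IGF2BP3 IP. The groups were far apart relative to their spread. The log2 fold change of 0.46 (SE 0.08) was under 1.5-fold, with an edgeR adjusted p of 0.0326, so *NSD3* was the only member past that threshold in this fit (background 1.40% of all tested genes). The edgeR adjusted p was 0.182 and 0.142 when replicate 2 or 3 of the IgG IP was left out, and 0.179 and 0.155 when replicate 2 or 3 of the IGF2BP3 IP was. Leaving out replicate 1 of either antibody gave an edgeR adjusted p of 0.0302 (IgG IP) and 0.0478 (IGF2BP3 IP), and the log2 fold change was 0.43 to 0.49 in these 6 fits. The other 4 had log2 fold changes of 0.16 (*NSD1*), 0.13 (*NSD2*), 0.02 (*ASH1L*) and -0.06 (*SETD2*). *SETD2* was at 84.2, 79.8 and 77.0 CPM and at 81.7, 80.7 and 69.0 CPM, with overlapping groups.

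The H3K9 methyltransferases had a median of 0.14 (7 members), with 6 above 0 and none past an adjusted p of 0.05 with or without the block. They comprise SUV39H1 and SUV39H2 of constitutive heterochromatin, the EHMT1 and EHMT2 pair (GLP and G9a), SETDB1, which acts with TRIM28, SETDB2 and PRDM2. Log2 fold changes ran from 0.18 for *SUV39H1* and *EHMT2* to -0.05 for *SUV39H2*. *SUV39H2* was at 96.2, 91.7 and 94.5 CPM in the IgG IP and at 88.4, 88.5 and 94.9 CPM in the IGF2BP3 IP. The groups overlapped.

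The H3K27 methyltransferases of Polycomb repressive complex 2 (PRC2) had log2 fold changes close to 0. *EZH2*, the main catalytic subunit in dividing cells, was at 85.4, 87.9 and 83.5 CPM in the IgG IP and at 83.0, 85.3 and 88.6 CPM in the IGF2BP3 IP. The log2 fold change was -0.00, with a 95% confidence interval of -0.17 to 0.17. *EZH1* was at 12.03, 15.4 and 14.7 CPM and at 14.6, 12.3 and 14.8 CPM, with a log2 fold change of -0.02 and a wider interval of -0.35 to 0.32. For H4K20, *KMT5A*, which adds the methyl group that *KMT5B* and *KMT5C* extend, had -0.00, *KMT5B* -0.09 and *KMT5C* 0.12. *KMT5B* was at 91.5, 108.2 and 99.2 CPM and at 83.7, 101.2 and 95.4 CPM, lower in each pair but with overlapping groups. *DOT1L*, the H3K79 methyltransferase without a SET domain, was at 14.0, 19.0 and 20.5 CPM and at 18.8, 25.7 and 28.0 CPM. It had a log2 fold change of 0.43 (SE 0.19, edgeR adjusted p = 0.384), and with the block it was 0.44 (adjusted p = 0.00286), under 1.5-fold.

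The remaining 7 SET-domain proteins split. *KMT2E* (MLL5), whose SET domain lacks H3K4 methyltransferase activity, was at 37.2, 41.5 and 48.6 CPM in the IgG IP and at 52.9, 67.8 and 62.2 CPM in the IGF2BP3 IP. Its groups did not overlap, and the log2 fold change was 0.52 (SE 0.13, edgeR adjusted p = 0.110; DESeq2 adjusted p = 0.0312). *SMYD5*, the least abundant member, was at 2.39, 1.01 and 2.26 CPM and at 2.77, 2.34 and 2.85 CPM. With 15 to 35 counts per library its log2 fold change of 0.53 had an SE of 0.34, and its groups overlapped. The others lay between 0.12 for *SETD7* and -0.17 for *SMYD3*.

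Of these 7, 3 were among the 8 lowest members. *SMYD3* was at 14.96, 16.2 and 16.1 CPM in the IgG IP and at 12.8, 15.03 and 14.1 CPM in the IGF2BP3 IP. *SMYD2*, which also methylates proteins other than histones, was at 61.8, 49.5 and 54.4 CPM and at 57.3, 50.1 and 52.9 CPM. *SETD3* was at 221.9, 217.1 and 209.1 CPM and at 216.8, 201.4 and 214.3 CPM. All 3 had overlapping groups, and none had an adjusted p under 0.05 in edgeR with or without the block.

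Of the demethylases, *KDM6B* (JMJD3), which removes H3K27 methylation, had the highest log2 fold change. It was at 5.20, 13.2 and 9.36 CPM in the IgG IP and at 9.15, 18.1 and 17.6 CPM in the IGF2BP3 IP. The groups overlapped, with replicate 1 of the IGF2BP3 IP below replicates 2 and 3 of the IgG IP. Its log2 fold change was 0.66 (SE 0.34, edgeR adjusted p = 0.467), and 0.69 with the block (adjusted p = 0.000554). Without the block it was 0.40 when replicate 1 of the IgG IP was left out and 1.02 when replicate 2 was. *KDM4B*, which acts on H3K9, was at 17.1, 27.1 and 26.5 CPM and at 28.5, 36.6 and 35.8 CPM. Its groups were apart, and the log2 fold change was 0.50 (SE 0.18, edgeR adjusted p = 0.288). The paralogs *KDM4A* and *KDM4C* had 0.04 and -0.02.

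The demethylases of H3K4 differed less. *KDM1A* was at 298.2, 361.3 and 343.2 CPM in the IgG IP and at 289.6, 344.0 and 334.3 CPM in the IGF2BP3 IP. It was slightly lower in each pair, with a log2 fold change of -0.05 and a 95% confidence interval of -0.28 to 0.18. In limma-trend on log2(TPM + 1) *KDM1A* had 0.10, where the median of all tested genes was 0.11. Its paralog *KDM1B* had 0.17, *KDM5A* 0.17 and *KDM5B* 0.16. *KDM2B*, a CpG island binding protein of a variant Polycomb complex, had 0.37 (SE 0.10, edgeR adjusted p = 0.136) with groups apart, and *KDM2A* 0.14. In the KDM7 family of PHD finger and JmjC proteins, *PHF8* had 0.35, *PHF2* 0.21 and *KDM7A* 0.04. In the KDM3 family, *KDM3B* had 0.23, *JMJD1C* 0.10 and *KDM3A* 0.03. Across the 17 demethylases 3 had groups apart upward (background 12.0%), 0 had groups apart downward (background 8.69%), and 7 had an adjusted p under 0.05 with the block, all higher (background 10.9%).

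**Figure D3:**
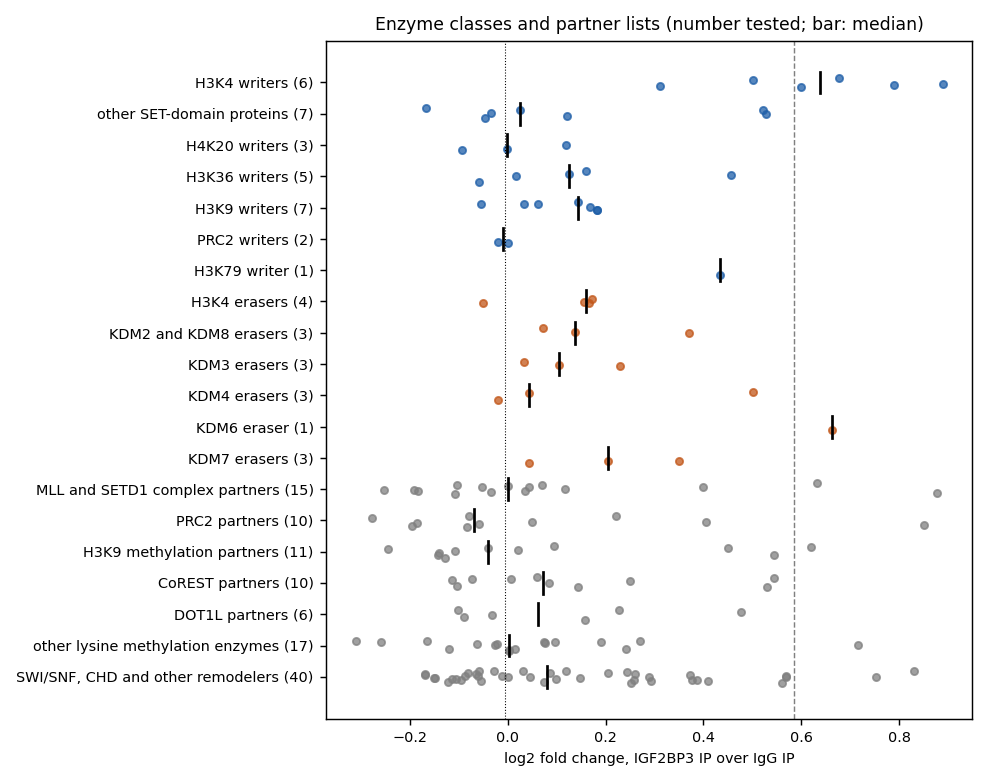
Log2 fold change (x axis) of single genes as points, for classes of methyltransferases (blue), demethylases (orange) and lists of partner genes (grey) on the y axis, with the number tested in parentheses and bars at the medians. The 6 H3K4 writers lie at 0.31 to 0.89, to the right of the dotted line at the median of all tested genes, while the 15 partner genes of their complexes have a median of -0.00. The dashed line marks 1.5-fold.

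Genes whose proteins work with these enzymes were compared in the same fit. Of 69 tested partner and related enzyme genes (81 listed), 3 were called enriched (background 1.16%) and 0 lower, and their median log2 fold change was 0.00. Of the 15 partners of the MLL and SETD1 complexes, *NCOA6*, a subunit of the KMT2C and KMT2D complexes, was called. It rose from 26.8, 29.5 and 26.8 CPM in the IgG IP to 44.8, 57.9 and 49.99 CPM in the IGF2BP3 IP, a log2 fold change of 0.88 (SE 0.12, edgeR adjusted p = 0.0148). *HCFC1*, a subunit of SETD1 and MLL complexes, had 0.63 (edgeR adjusted p = 0.285), and 0.66 with the block (adjusted p = 5.7e-07). *DPY30*, a core subunit shared by all these complexes, was below in every IGF2BP3 IP library, with -0.25 (edgeR adjusted p = 0.345). With the block it had -0.24 (adjusted p = 0.0058). Of the 69 genes, 15 were higher at an edgeR adjusted p under 0.05 with the block (background 10.9%) and 7 lower (background 5.23%).

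Among 10 PRC2 partners, *PHF1*, a Polycomb-like accessory subunit, was called. It rose from 7.48, 5.96 and 7.10 CPM to 12.7, 12.3 and 11.9 CPM, a log2 fold change of 0.85 (SE 0.15, edgeR adjusted p = 0.0336), and the list's median was -0.07. Among 11 tested partners in H3K9 methylation, *CBX5* (HP1α), a reader of that mark, was called. It rose from 1252, 1300 and 1358 CPM to 1996, 2162 and 1850 CPM, a log2 fold change of 0.62 (SE 0.09, edgeR adjusted p = 0.016). *TRIM28*, the partner of SETDB1, had 0.55 (edgeR adjusted p = 0.0415), under 1.5-fold. Each of the 3 calls was lost in some fits that left out 1 library, as were most calls over all genes. The number called was 0 when replicate 2 or replicate 3 of the IgG IP, or replicate 2 of the IGF2BP3 IP, was left out, where 0.128%, 0.0470% and 0% of all tested genes were called, and 1 without replicate 3 of the IGF2BP3 IP (0.154%). Over the 6 fits that each left out a library the log2 fold change stayed between 0.77 and 0.96 for *NCOA6*, 0.75 and 0.92 for *PHF1*, and 0.56 and 0.66 for *CBX5*.

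In 3 lists no gene was called without the block. The log2 fold changes of the 10 CoREST partners of KDM1A ran from 0.54 for *ZMYM3* to -0.11 for *HDAC1*, and those of the 6 DOT1L partners from 0.48 for *MLLT1* to -0.10 for *AFF4*. The 17 tested of 28 other lysine methylation enzymes ran from 0.72 for *PRDM11* to -0.31 for *RIOX2*. *PRDM11* was at 7.05, 7.17 and 7.50 CPM in the IgG IP and at 11.2, 13.1 and 11.5 CPM in the IGF2BP3 IP. Its groups did not overlap, the edgeR adjusted p was 0.0502, and with the block it was called (0.72, adjusted p = 0.000701). Of 40 tested chromatin remodeler genes 1 was called, *ARID1A*, a DNA-binding subunit of SWI/SNF, with 0.83 (SE 0.15, edgeR adjusted p = 0.0372, background 1.16%). It was called in 1 of the 6 fits that left out a library, with log2 fold changes of 0.68 to 0.98. Of the 40, 12 had groups apart upward (background 12.0%) and 10 were higher at an unadjusted p under 0.05 in edgeR (background 9.72%).

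The members' transcripts were long by the median, although 9 of 48 were under 3000 bases. The canonical transcripts had a median length of 6097 bases, against 3018 over 14479 tested genes with a transcript in the annotation. The median coding length was 3756 against 1182 bases. The 1182 counts transcripts without a coding sequence as 0, and 82.0% of all tested genes had one, as had all members. The GC content was 49.6% against 47.7%. ACACAC, a CA-rich motif of the kind IGF2BP proteins bind, was searched on the transcript strand, overlaps counted. It was found in 72.9% of member transcripts and 47.1% of all, with medians of 0.195 and 0 per kb. GGACT, the core of the m6A consensus, was found in 97.9% and 87.0%, with 1.17 and 0.895 per kb. A longer transcript has more room for a motif, and the shares of transcripts with a motif were not matched for length. *SETD1A* and *KDM4B* held no ACACAC.

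Fold changes varied with GC content and length, in the members and in all genes. Across the 48 members, the log2 fold change correlated with GC content at r = 0.546 (Spearman's rho = 0.479), and across all tested genes at r = 0.363 (rho = 0.413). With transcript length, r was 0.418 in the members and 0.154 in all genes. These are correlations across genes of the same 6 libraries, and genes are not independent replicates. The 9 members at 58% GC or more had a median log2 fold change of 0.60, where the 2789 tested genes there had 0.18. The 19 members at 42 to 50% GC had 0.03, where all genes had -0.02. *KMT2A*, *KMT2C*, *KMT2E* and *NSD3*, at 41.9 to 46.9% GC, lay above the rest of their range with 0.31 to 0.52. *KMT5C*, the most GC-rich member at 66.0%, had 0.12 and a transcript of only 2286 bases.

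**Figure D4:**
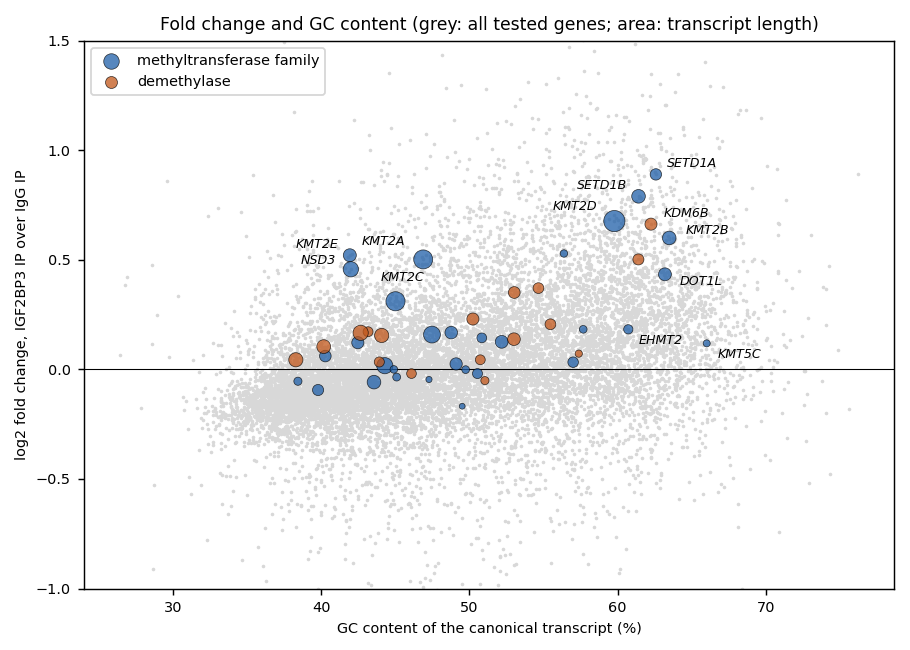
GC content of the canonical transcript (x axis, %) against the log2 fold change of the IGF2BP3 IP over the IgG IP (y axis), with tested genes in grey and the 48 members in colour, their area proportional to transcript length. The highest members, *SETD1A*, *SETD1B*, *KMT2D*, *KDM6B* and *KMT2B*, sit at 59.8 to 63.5% GC. 49 tested genes lie outside the plotted range.

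The same GC-rich mRNAs also varied with the replicate. *SETD1A* was lower in replicate 1 than in replicates 2 and 3 by log2 values of -1.13 in the IgG IP and -0.47 in the IGF2BP3 IP, *KDM6B* by -1.12 and -0.96, *SETD1B* by -0.81 and -0.86, and *KMT2D* by -0.50 and -0.93. *KMT2B*, equally GC-rich, had -0.14 and -0.11, and *KMT2A* 0.09 and 0.13. Among genes with at least 58% GC and 5000 bases, the 7 members had a median log2 fold change of 0.66 (range 0.43 to 0.89) and the 329 tested genes 0.38. Of those 329, 37.7% had groups apart upward, as had 3 of the 7 members. After a correction of each library for GC content, the log2 fold changes of *SETD1A*, *SETD1B*, *KMT2D*, *KMT2B* and *KDM6B* were 0.68, 0.59, 0.49, 0.38 and 0.45, and those of *KMT2A*, *KMT2C*, *KMT2E* and *NSD3* were 0.49, 0.32, 0.56 and 0.50. After a correction for length, those of *KMT2A*, *KMT2C*, *KMT2E* and *NSD3* were 0.39, 0.13, 0.43 and 0.37. In limma-trend on log2(TPM + 1) they were 0.18, 0.50, 0.56 and 0.63, where the median of all tested genes was 0.11. The edgeR adjusted p of *NSD3* was 0.0303 with the GC correction and 0.113 with the length correction. With the GC correction, 0.711% of all tested genes were higher at an edgeR adjusted p under 0.05. With the block and the GC correction together, 2 members were called, *SETD1A* (0.72, edgeR adjusted p = 0.00106) and *SETD1B* (0.61, edgeR adjusted p = 0.00114), beside 1.88% of all tested genes. The part of GC content and of transcript length in these fold changes was not tested.

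Whether the counting used the strand is not stated, and 15 members overlap another tested gene, 14 of them only on the opposite strand. *NSD3* overlaps *DDHD2* (log2 fold change -0.11) and *KMT2E* overlaps *SRPK2* (-0.04). *DOT1L* overlaps *AP3D1*, which had 0.31, and *KMT2B* overlaps *IGFLR1*, which had 0.47 at under 1 CPM.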

How the data were processed

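RIP-seq libraries of WaGa cells (3 IgG IP, 3 IGF2BP3 IP) were grouped by their labels. The authors aligned paired reads to GRCh38 with STAR 2.7.9a and quantified them with RSEM. They deposited whole-number counts per gene, not normalized, and TPM and FPKM values estimated by RSEM. The program behind the counts is not given in the sources used here. Counts were filtered (filterByExpr), TMM-normalized and tested in edgeR 4.0.16 under R 4.3.3 (quasi-likelihood), with Benjamini-Hochberg adjustment over all 14507 tested genes and thresholds of 1.5-fold and 0.05. Standard errors were derived from the fold change and its F statistic. The biological coefficient of variation was 13.4%. An exact permutation test of 3 against 3 libraries cannot go below p = 0.1.

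Alternatives were DESeq2 1.42.0, no filter, limma-trend (limma 3.58.1) on log2(TPM + 1), loess corrections (span 0.5) for GC content and for effective length (from counts and FPKM), a replicate block and leaving out each library. Leaving out both replicate 1 libraries was chosen after seeing the data. Deviations from the group means correlated across genes between same-numbered libraries, at 0.568 (replicate 1), 0.277 (2) and 0.231 (3). Replicates 2 and 3 correlated as much when crossed (0.277 and 0.269). The labels do not say whether a number marks a shared lysate. The pairing rests on these correlations, which set replicate 1 apart but do not tell replicates 2 and 3 from each other.

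GENCODE version 44 (GRCh38) held 60437 of the 60655 gene identifiers and gave coordinates, sequences, length and GC content. The members and lists were chosen with earlier results of these data known. Every library's value is given for the 8 highest and 8 lowest members and others described in full, and for genes called in the partner lists. Where a list had no call, its highest and lowest log2 fold changes are given. The fits were tested on simulated data.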

Additional observations from a re-analysis of the deposited data

How the results depend on the processing

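The count of 0 members called became 4 with no filter (background 1.23% of 29184 genes). It became 5 with the replicate block (3.56%), 2 with the block and GC correction (1.88%) and 5 without both replicate 1 libraries (3.18%). It was 0 with DESeq2 (0.963%, also of 29184 genes), the GC correction (0.559%) and the length correction (0.964%). limma-trend called 0 of all tested genes, as did edgeR without IGF2BP3 IP replicate 2, so that a count of 0 says nothing there. On leaving out each library the count was 0 to 1, with a background of 0% to 1.64%, the 1 being *KMT2D* without IGF2BP3 IP replicate 1. For the partner lists the count of 3 (background 1.16%) became 5 with no filter (1.23%), 0 with limma-trend (0% of all genes) and 5 with the block (3.56%), and was 0 to 3 on leaving out each library. The 11 members with groups apart upward became 6 with limma-trend (background 9.64%), 7 with the length correction (background 10.3%) and 28 without both replicate 1 libraries, and 11 to 22 on leaving out each library. The members' median of 0.14 became 0.26 with limma-trend, where the median of all tested genes moved from -0.006 to 0.11. The members' median was 0.10 with the GC correction (all tested genes -0.026) and 0.045 with the length correction (all tested genes -0.055). With the block and GC correction it was 0.11 (all tested genes -0.027). The members' median was 0.10 to 0.17 on leaving out each library.

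For single members, 326 of 384 other values under alternatives kept their direction and side of the threshold, 16 values of 5 members passed it only there, and 42 values of 22 members changed sign, in none of which either value passed. The cause was not tested. With the GC correction the log2 fold changes that changed sign were *EHMT2* -0.023, *KMT5C* -0.107, *KDM8* -0.089, *KDM4A* -0.025, *EHMT1* -0.119, *SETD5* -0.021, *EZH2* 0.011 and *SUV39H2* 0.033. With the block and GC correction these were *EHMT2* -0.022, *KMT5C* -0.111, *KDM8* -0.124, *KDM4A* -0.026, *EHMT1* -0.114, *SETD5* -0.020, *EZH2* 0.011 and *SUV39H2* 0.031. With the length correction these were *KDM5A* -0.003, *SETD7* -0.020, *JMJD1C* -0.019, *SETDB2* -0.020, *KDM7A* -0.137, *KDM3A* -0.063, *EHMT1* -0.050, *SETD5* -0.063 and *ASH1L* -0.223. Without both replicate 1 libraries these were *KDM8* -0.179, *KDM7A* -0.016, *KDM3A* -0.007, *EHMT1* -0.019, *EZH2* 0.021 and *KDM4C* 0.012. With limma-trend these were *EZH2* 0.117, *KMT5A* 0.346, *KDM4C* 0.079, *EZH1* 0.013, *SETD3* 0.191, *SMYD2* 0.096, *KDM1A* 0.096, *SUV39H2* 0.223 and *SETD2* 0.081. With the block alone these were *EZH2* 0.000 and *KMT5A* 0.000. On leaving out each library 257 of 288 values were kept and 30 of 15 members changed sign, with ranges of *KDM8* -0.164 to 0.262, *SETDB2* -0.016 to 0.176, *KDM4A* -0.157 to 0.231, *KDM7A* -0.153 to 0.217, *KDM3A* -0.029 to 0.111, *EHMT1* -0.110 to 0.124, *SETD5* -0.017 to 0.062, *ASH1L* -0.037 to 0.054, *EZH2* -0.040 to 0.021, *KMT5A* -0.091 to 0.058, *KDM4C* -0.081 to 0.036, *EZH1* -0.110 to 0.058, *SMYD2* -0.120 to 0.043, *KDM1A* -0.124 to 0.020 and *SETD2* -0.101 to 0.002. Members with few counts, such as *SMYD5* with 15 to 35 per library, have wide intervals at this depth. Besides the 5 calls named, the block changed no member's call.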
